A study of Triticum aestivum and Triticum urartu and Aegilops speltoides with 12 samples.

Results

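Among transcripts measured on arrays in young wheat, rye and their diploid relatives, these are the bread wheat sequences that were high in both hexaploid plants and low in all 4 diploids. A feature is the summarised signal of the probes for 1 consensus sequence, and only features whose ID begins with Taestivum (bread wheat) were considered. Levels are log2 of the deposited intensity. To choose the members, values under 7 were set to 7, the 2 arrays of each group were averaged, and the 6 group means were sorted. A feature met the rule where the widest gap between neighbouring means was at least 2 and the groups above it were exactly the hexaploids. Of 42683 bread wheat features, 428 met it, and the 200 with the widest gap were kept, out of 56855 features in all. The measured levels in all 6 plants chose these features, so their difference between hexaploids and diploids is given below as a description with no test.

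The 12 single-colour arrays held 2 samples each of Triticum urartu (labelled A), Aegilops speltoides (B), Aegilops tauschii (D), rye (Secale cereale, R), hexaploid wheat (ABD) and a hexaploid wheat-rye translocation (2BS2RL). Every sample was total RNA of the leaves and roots of 2 whole seedlings, untreated as far as the labels say, harvested on day 10 at the third-leaf stage. The sources used here name no accession or cultivar of any plant, so none of the diploids is known to be the line from which the hexaploids descend. In such mixed tissue fewer cells of a type and less RNA per cell cannot be told apart. Replicates were labelled as biological, and p-values measure the spread between such samples. Median intensity over all features ran from 1587 to 1667 over the arrays, and the number of arrays limits the precision.

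Bread wheat is an allohexaploid: its nucleus holds 3 related subgenomes, A, B and D, each inherited from a different diploid grass. T. urartu is the accepted donor of the A genome and Ae. tauschii of the D genome. The donor of the B genome is not known as a living species, and Ae. speltoides is its closest relative in use. Most wheat genes therefore exist as homoeologues, the copies of 1 ancestral gene in different subgenomes, and polyploids are known for silencing, altered dosage and altered expression of such copies. The 2BS.2RL line carries the long arm of rye chromosome 2R in place of the long arm of wheat chromosome 2B. A probe of 60 bases designed on a bread wheat sequence can bind a diploid's transcript less well where the sequences differ. For every feature below, a lower transcript level in a diploid and a poorer probe match to it cannot be told apart. No feature ID matched a gene in the annotation used here (0 matches), so features carry IDs and no gene names, roles or positions. No probe sequence is shown here.

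Of all ways in which the 6 plants could be split, the hexaploids against the rest was the second most frequent. A widest gap of at least 2 was found in 2845 bread wheat features. The most frequent split set rye alone below all others, with 482 features. The split into hexaploids and diploids followed with 428 features, 15.0% of the 2845. With the arrays scaled to the random control, 725 features showed this split. Features high in both hexaploids and 1 diploid numbered 238 with Ae. tauschii, 204 with T. urartu, 85 with Ae. speltoides and 42 with rye. High in 1 hexaploid alone were 28 features in translocation and 12 in wheat. Of the 14 other pairs of plants none was high alone in more than 7 features. The mirror image of the rule, high in all 4 diploids and low in both hexaploids, was met by 3 features. These are counts of a pattern over features that can share a transcript, with no test attached.

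**Figure D1:**
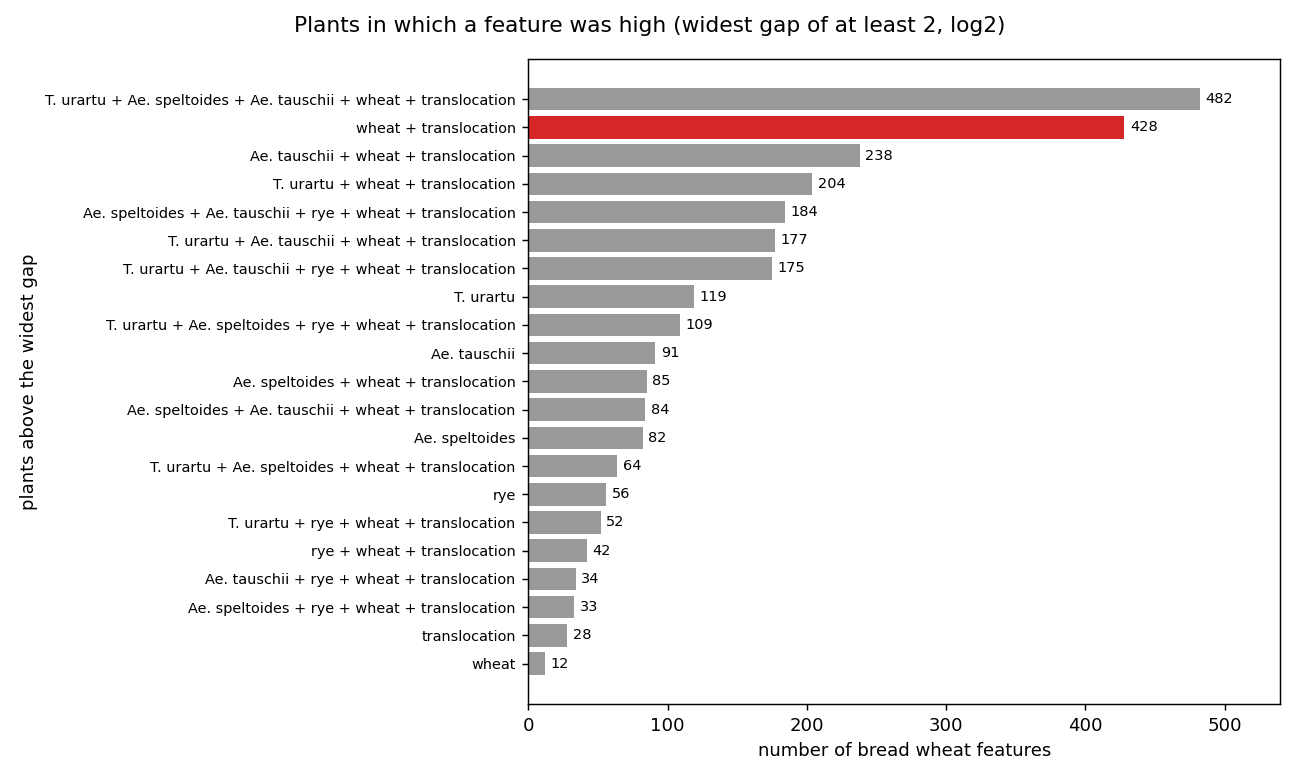
Number of bread wheat features (horizontal axis) for each set of plants above the widest gap, for the 21 most frequent sets with a gap of at least 2 (log2). The red bar is the set described here, high in wheat and translocation alone, with 428 features.

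The split was largely that of features designed on bread wheat. It was met by 1.00% of those features, beside 0.175% of the 5724 features from T. monococcum (einkorn wheat) sequences (10 features), 0.0804% of the 2489 from Ae. speltoides sequences (2 features) and 0.0174% of the 5731 from rye sequences (1 feature). None of the 114 features labelled Atauschii or of the 114 labelled Asquarrosa met it. Features of those other sources did show wide gaps: 5.29% of the T. monococcum features and 8.48% of the rye features had a gap of at least 2 of any kind, beside 6.67% of the bread wheat features. Among features with such a gap, the hexaploid split made up 15.0% for bread wheat sequences, 3.30% for T. monococcum sequences and 0.206% for rye sequences. In 327 of the 486 rye features with such a gap, rye alone was high. T. urartu alone was high in 44 of 303 such T. monococcum features, and Ae. speltoides alone in 29 of 111 such Ae. speltoides features. Ae. tauschii alone was high in 0 of the 9 labelled Atauschii and 0 of the 6 labelled Asquarrosa. The share with the hexaploid split differed between sources. The part of the probe's origin in the members' low diploid levels was not tested.

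The 200 members were well expressed in the hexaploids and lay near the array's background in the diploids. In wheat their group means ran from 9.86 to 13.27 with a median of 11.17, and in translocation from 9.81 to 13.29 with a median of 11.31. Of the 200, 173 lay above the median of all bread wheat features in wheat (10.28), and 56 lay in the upper quartile. The members' median was 6.41 in T. urartu, 6.59 in Ae. speltoides, 6.26 in Ae. tauschii and 6.86 in rye. In the diploids, 182 to 192 of the 200 fell in the lowest quartile of all bread wheat features. By choice of the members, the 4 hexaploid arrays lay above the 8 diploid arrays in all 200, by 1.92 to 6.59, as they did at any margin in 4.90% of all bread wheat features. Replicates of the members differed by a median of 0.15 in wheat and 0.18 in translocation, and by 0.31 to 0.37 in the 4 diploids, where the signal was dim.

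**Figure D2:**
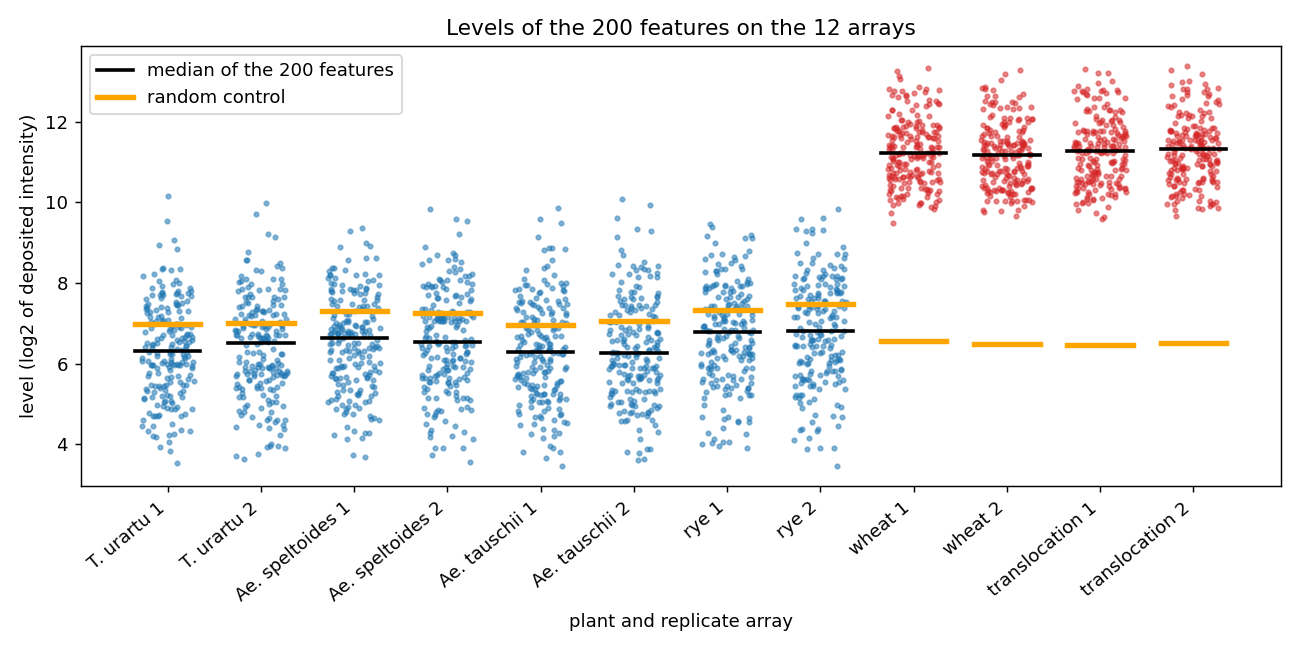
Level (log2 of the deposited intensity, vertical axis) of the 200 features on each of the 12 arrays (horizontal axis), 1 point per feature, with the median as a black bar and the random control as an orange bar. On the hexaploid arrays every point lies above the random control, and on each diploid array the median lies below it.

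The label of these transcripts, seen in the hexaploids only, held in the strict sense for a minority. The random control feature, the summary of 6570 probes of random sequence, served as the background of each array. It lay between 6.47 and 6.56 on the hexaploid arrays, between 6.95 and 7.30 on those of the diploids other than rye, and at 7.34 and 7.47 on those of rye. All 200 members were at least 1 log2 above it in both hexaploids. At or below it on both arrays were 127 members (63.5%) in T. urartu, 134 (67.0%) in Ae. speltoides, 130 (65.0%) in Ae. tauschii and 118 (59.0%) in rye, beside 11.5%, 13.3%, 11.4% and 14.4% of all bread wheat features in the same plants. The rule set diploid levels low, so nothing is read from that contrast. In all 4 diploids at once, 76 of the 200 were at or below the control, and 36 were at or below it in none. Counted more loosely, 168 of the 200 stayed less than 1 log2 above the control in every diploid, 20 exceeded that in 1 diploid, 3 in 2, 1 in 3 and 8 in all 4. For those last 8 the rule found a large difference in level and not an absence.

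The widest gap belonged to Taestivum_ESTC006334. It read 12.82 and 13.04 on the wheat arrays and 13.20 and 13.38 on the translocation arrays, against 7.60 and 6.71 in T. urartu, 7.08 and 7.14 in Ae. speltoides, 7.27 and 6.60 in Ae. tauschii and 6.30 and 6.81 in rye. Its gap was 5.63. The 4 hexaploid arrays were high and close together, and the 8 diploid arrays lay around background, between 6.30 and 7.60.

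Taestivum_ESTC038511 read 12.79 and 12.41 in wheat and 12.77 and 12.75 in translocation. It read 5.29 and 5.98 in T. urartu, 4.97 and 5.19 in Ae. speltoides, 5.04 and 4.86 in Ae. tauschii and 5.88 and 4.93 in rye. All 8 diploid arrays lay below their random control, so the fold is a bound: the lower hexaploid mean was at least 36.7-fold above the highest diploid background. Taestivum_ESTC000362 was of the same kind. It read 12.64 and 12.52 in wheat and 12.81 and 12.63 in translocation, and between 6.17 and 7.22 on all 8 diploid arrays, at least 36.1-fold lower.

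Taestivum_ESTC003876 averaged 12.39 ± 0.05 (SD, n = 2) in wheat and 12.30 ± 0.10 in translocation, and 5.12 to 5.82 in the diploids, at background in all 4 and at least 29.7-fold lower. Taestivum_ESTC021182 averaged 12.10 ± 0.06 and 12.22 ± 0.0079, and 5.27 to 6.13 in the diploids, at least 25.9-fold lower. Taestivum_ESTC034735 averaged 11.87 ± 0.18 and 11.98 ± 0.36, and 5.32 to 6.02 in the diploids, at least 22.1-fold lower. In these features no diploid could be told from the background of its arrays.

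The other members among the 10 with the widest gap were not at background in every diploid. Taestivum_ESTC033559 averaged 12.80 ± 0.01 in wheat and 12.77 ± 0.07 in translocation, and it read 7.37 and 7.85 in T. urartu, above that plant's random control on both arrays. Taestivum_ESTC018641 averaged 12.78 ± 0.13 and 12.80 ± 0.02, and it read 7.28 and 8.22 in Ae. tauschii. Taestivum_ESTC037516 averaged 12.57 ± 0.06 and 12.44 ± 0.02, with 7.73 and 6.59 in rye and at background elsewhere. Taestivum_ESTC049924 averaged 12.47 ± 0.20 and 12.57 ± 0.03, with 7.93 and 6.73 in rye and at background elsewhere. In both of the last features 1 rye array was above the control and the other below it, so a signal in rye was not shown.

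**Figure D3:**
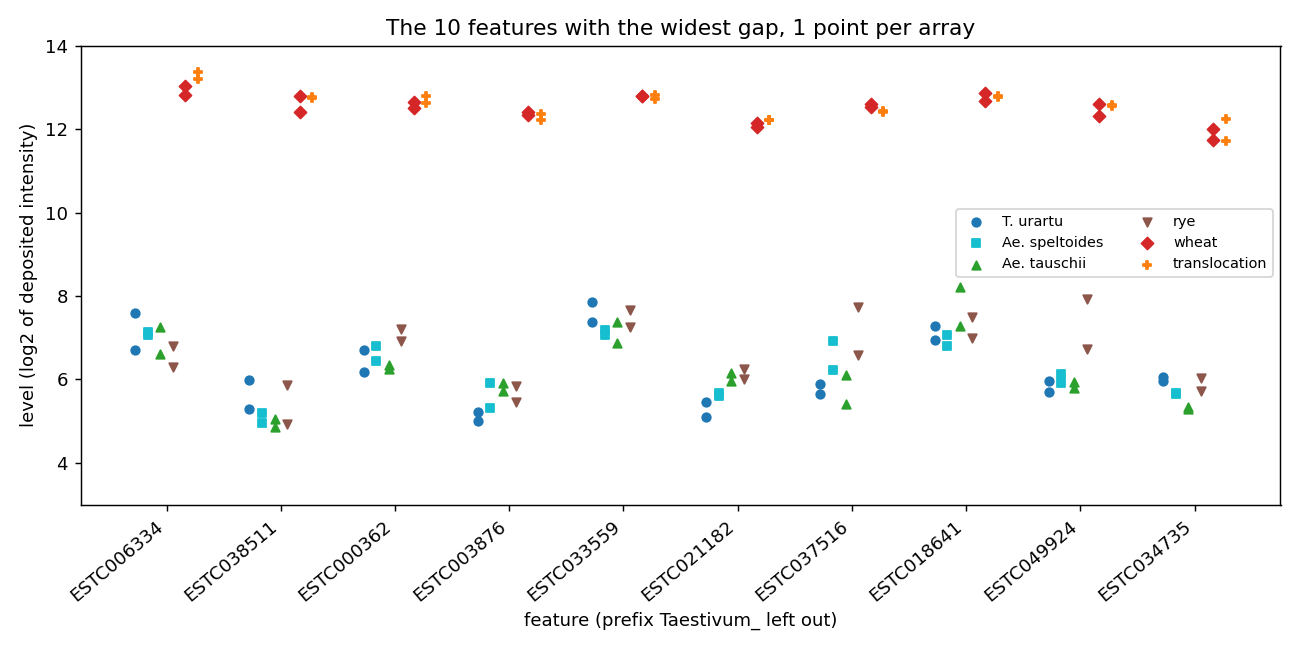
Level (log2 of the deposited intensity, vertical axis) of the 10 features with the widest gap (horizontal axis), with 1 point per array and 1 marker per plant. In each feature the 4 hexaploid arrays sit between 11.73 and 13.38, and the 8 diploid arrays lie at 8.22 or lower.

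At the other end of the diploid levels stood features that the diploids also carried. Taestivum_ESTC015192 had the highest level in any diploid: 10.17 and 9.99 in T. urartu, against 8.20 and 7.98 in Ae. speltoides, 7.79 and 7.47 in Ae. tauschii, and 8.35 and 8.16 in rye. It read 13.32 and 13.18 in wheat and 13.20 and 13.29 in translocation, 9.01-fold above T. urartu, and was among the 3 brightest members. Taestivum_ESTC050029 read 9.47 and 9.83 in rye, 7.77 to 8.11 in the other diploids, and 12.49 to 12.91 in the hexaploids. Taestivum_ESTC006483 was well above background in every diploid, with means of 9.63 in T. urartu, 9.22 in Ae. speltoides, 9.60 in Ae. tauschii and 9.38 in rye, against 12.97 ± 0.14 in wheat and 12.91 ± 0.14 in translocation, 9.72-fold above T. urartu. It was 1 of the 8 members that exceeded the control by 1 log2 in all diploids. The brightest member of all, Taestivum_ESTC031513, averaged 13.27 ± 0.02 in wheat and 13.24 ± 0.10 in translocation. It read 8.86 and 9.94 in Ae. tauschii and 7.94 and 8.19 in Ae. speltoides, and 6.10 to 7.12 in T. urartu and rye.

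The threshold of the list cut through a continuous range of gaps. The last feature kept, Taestivum_ESTC041611, had a gap of 2.81: it averaged 10.26 ± 0.07 in wheat and 10.37 ± 0.06 in translocation, and 6.45 to 7.45 in the diploids. The first left out, Taestivum_ESTC038568, had a gap of 2.80, with 9.80 ± 0.12, 9.93 ± 0.25 and 4.94 to 6.28. The 228 features that met the rule but were left out had medians of 10.41 in wheat and 7.13 to 7.30 in the diploids, and 54 of them were at or below the random control in all 4 diploids.

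To read the pattern on arrays that took no part in the choice, the rule was applied to 1 array per plant and read on the other. On the replicate 1 arrays 430 bread wheat features met it, and 350 of these (81.4%) met it again on the replicate 2 arrays, beside 0.991% of all bread wheat features. Of the 200 with the widest gap on replicate 1, 194 met the rule on replicate 2. In all 200 both hexaploids lay above all 4 diploids on the unused arrays, as they did at any margin in 7.18% of bread wheat features. The median distance between the lower hexaploid and the highest diploid was 3.32 on the unused arrays, against a median gap of 3.45 on those used for the choice. The other way round, 423 features met the rule on replicate 2 and 350 of these met it on replicate 1 (82.7%, beside 1.01%). Of the 200 widest, 195 met it and all 200 kept the order of hexaploids above diploids (beside 7.85%). The lists chosen on 1 array per plant shared 180 and 179 features with the 200 members. The 2 arrays of a plant share its line, growth and processing, so this shows how far the pattern repeats between samples of the same plants and not in others.

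**Figure D4:**
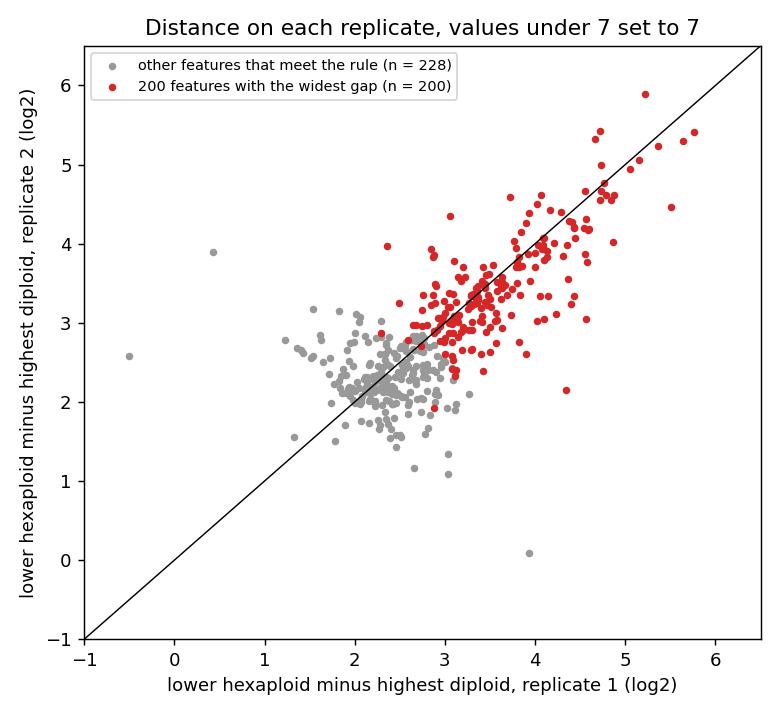
Distance between the lower hexaploid and the highest diploid (log2, values under 7 set to 7) on the replicate 1 arrays (horizontal axis) and on the replicate 2 arrays (vertical axis), for the 200 members in red and the 228 other features that met the rule in grey, all chosen on the mean of both arrays. Members scatter around the line of equality, and the 3 points farthest from it are among the features left out.

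Between the hexaploids no member passed the test, a count near the share of all features that did. The rule limits this difference in size, since both lines must lie above the gap, but not in sign. With limma on all features (Benjamini-Hochberg adjusted p under 0.05 and a log2 difference of at least 1), 0 of the 200 members were called between translocation and wheat, beside 0.642% of all features. Against a background that low, the count says nothing particular of the members. At an unadjusted p under 0.05 stood 5 members (2.5%, against 5.85% of all features). With a variance trend and robust fitting, limma gave 0 calls and 6 members at that unadjusted level (5.65% of all features), and with the hexaploid arrays fitted alone it gave 0 and 13 (7.95%). With values under 7 set to 7, it gave 0 calls and 41 members at that level, against 7.28% of all features. The members' share at the unadjusted level was thus below that of all features as deposited and above it with this floor. The floor makes diploid readings under 7 equal, and these readings enter the pooled spread. The 41 are therefore not read as differences between the lines, and the cause of the shift was not tested. The members' differences (translocation minus wheat) ran from -0.84 to 1.03 with a median of 0.05, against -0.0010 over all features. In the members 118 were above 0 and 82 below, beside 28297 above and 28558 below over all features. In the 228 other features that met the rule, 139 were above 0 and 89 below, so this lean was not particular to the members.

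The largest difference upward was in Taestivum_ESTC040346. It read 11.88 and 11.75 in wheat and 12.76 and 12.93 in translocation, and the arrays did not overlap. The difference of 1.03 had an SE of 0.47 and did not pass (limma adjusted p = 0.887). Its diploid arrays, which enter the pooled spread, were uneven: 9.00 and 7.90 in Ae. speltoides, 3.80 and 4.57 in Ae. tauschii. The largest difference downward was in Taestivum_ESTC018142, named here after its values were seen. It read 10.99 and 10.85 in wheat and 10.21 and 9.95 in translocation, a difference of -0.84 with an SE of 0.29 (limma adjusted p = 0.560). Neither value shows that the lines are alike in these transcripts. Both differences exceeded the spread of the hexaploid arrays themselves, and neither passed after adjustment over all features.

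Sets chosen in the same way for other splits were read between the same lines. Of the 200 widest features high in T. urartu and both hexaploids, 2 were called higher in translocation and 0 lower. Of the 200 widest high in Ae. tauschii and both hexaploids 0 were called. Of the 85 high in Ae. speltoides and both hexaploids 0 were called (limma). Over all features 0.642% were called. At an unadjusted p under 0.05 (limma) stood 10 (5%), 8 (4%) and 4 (4.71%) in this order, against 5.85% of all features. With shares so near those of all features, the counts say nothing particular of these sets. Differences above 0 numbered 136 of 200 with T. urartu, 120 of 200 with Ae. tauschii and 56 of 85 with Ae. speltoides. None of these shares was tested against that of the members.

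The order of the diploids below the gap was not set by the rule. Rye was the highest of the 4 in 84 members (42.0%), Ae. speltoides in 49 (24.5%), T. urartu in 40 (20.0%) and Ae. tauschii in 27 (13.5%). Over all bread wheat features these shares were 31.1%, 22.9%, 22.4% and 23.6%. The random control was also highest on the rye arrays and next on those of Ae. speltoides, and its part in this order was not tested. A difference between diploids was called in at least 1 of the 6 pairs for 87 of the 200 members (43.5%), close to the 42.2% of all features. With values under 7 set to 7 before the fit, 27 members were called, beside 38.4% of all features.

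Called members were most numerous for T. urartu against rye (47) and Ae. tauschii against rye (45). Calls over all features were also most numerous in these pairs (13191 and 12411 of 56855). Ae. speltoides against rye gave 31 called members, and Ae. speltoides against Ae. tauschii gave 32. Against rye, T. urartu was called lower in 38 members (background 10.6%) and higher in 9 (12.6%), and Ae. tauschii lower in 34 (9.44%) and higher in 11 (12.4%). Ae. speltoides was lower than rye in 24 (8.70%) and higher in 7 (9.47%). With values under 7 set to 7, rye was the higher plant in 14 of 15 calls against T. urartu, 12 of 16 against Ae. tauschii and 12 of 15 against Ae. speltoides. In those fits 20.6%, 19.6% and 16.1% of all features were called in either direction, larger shares than among the 200 members. Shares by direction were not counted over all features there. The floor of 7 also lies below the random control of rye (7.34 and 7.47), and its part in these directions was not tested. Nothing is read from them. Among the diploids other than rye, the calls in the deposited values ran both ways. T. urartu was higher than Ae. speltoides in 10 (9.93%) and lower in 19 (8.25%), and higher than Ae. tauschii in 16 (9.00%) and lower in 12 (9.39%). Ae. speltoides was higher than Ae. tauschii in 18 (7.53%) and lower in 14 (9.48%).

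The 3 members with the largest called difference between diploids each paired a diploid with some signal and one that read below its random control. The size of such a difference includes readings below background and is no measure of a difference in transcript. Taestivum_ESTC040346, described above between the lines, averaged 8.45 ± 0.78 in Ae. speltoides and 4.19 ± 0.54 in Ae. tauschii, a difference of 4.26 (SE 0.47, limma adjusted p = 0.000133). Its levels in T. urartu (6.63) and rye (5.36) were at background. Taestivum_ESTC037573 read 9.86 and 8.52 in Ae. tauschii, against 6.59 and 3.92 in rye, a difference of 3.94 (SE 0.82, limma adjusted p = 0.00477). It read 12.45 to 12.98 in the hexaploids. Taestivum_ESTC037646 read 8.17 and 7.12 in T. urartu and 3.82 and 4.57 in Ae. tauschii, a difference of 3.45 (SE 0.64, limma adjusted p = 0.00279), with 10.69 to 11.51 in the hexaploids. The random control on the T. urartu arrays was 6.97 and 7.01, so of these 2 T. urartu readings only 7.12 was close to it. In each of the 3, the higher diploid stayed more than 3 log2 below the mean of either hexaploid. Brighter signals in a diploid included those of Taestivum_ESTC015192 in T. urartu (10.08), Taestivum_ESTC050029 in rye (9.65) and Taestivum_ESTC031513 in Ae. tauschii (9.40), described above. Each of these 3 was called against every other diploid (limma adjusted p of 0.0242 or lower). Other bright members were called in no pair of diploids: Taestivum_ESTC006483 (9.63 in T. urartu), Taestivum_ESTC021482 (9.62 in Ae. tauschii) and Taestivum_ESTC035583 (9.51 in rye). The last 2 are named here after their values were seen.

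How often the rule was met varied with the number in the feature ID, which the rule did not use, although members occurred in all 11 blocks of numbers. Of the features numbered 10001 to 15000, 0.201% met the rule (10 of 4965), and of those numbered 25001 to 30000, 0.260% did (13 of 5000). The share was 1.58% (79 of 4991) for 20001 to 25000, 1.92% (87 of 4539) for 30001 to 35000 and 2.38% (108 of 4533) for 35001 to 40000. The blocks from 30001 and from 35001 held 49 and 46 of the 200 members. Wide gaps of any kind were also more frequent there, at 10.5% and 12.5%, and least frequent in the block from 25001 to 30000, at 2.04%. Among features with a wide gap, the share that met the rule ran from 5.64% (5001 to 10000) to 22.6% (20001 to 25000). Median levels in wheat differed between the blocks too, from 8.69 in the block from 25001 to 30000 to 11.51 in that from 45001 to 50000. Neighbouring numbers tended to meet the rule together: for 190 members the next number was also on the array, and in 18 of these cases (9.47%) that feature met the rule, beside 1.00% of all bread wheat features. That feature had a wide gap of any kind in 46 cases (24.2%, beside 6.63%). The rule was met in 18 of these 46, beside 411 of 2714 over all bread wheat features with a next number. The neighbours were thus richer in wide gaps and, among those, in this split. What the numbering stands for is not stated, and no test is attached.

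**Figure D5:**
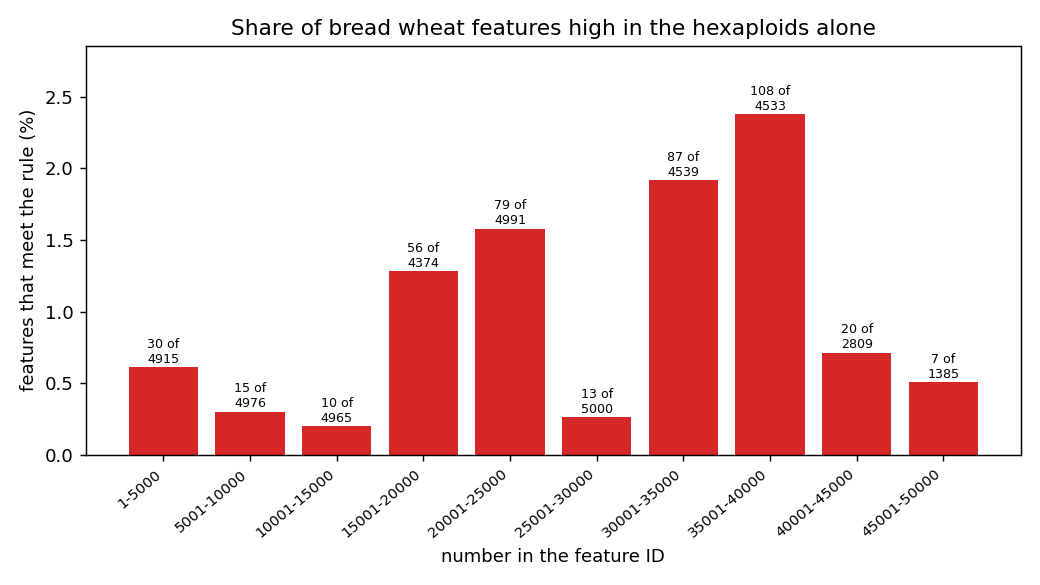
Share of bread wheat features that met the rule (%, vertical axis) by the number in the feature ID (horizontal axis, blocks of 5000), with the counts above each bar. The share runs from 0.201% to 2.38%; the last block, with 196 features, is left out.

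Profiles within the set ranged from nearly equal to far apart: over all pairs of members the root mean square distance over the 12 arrays had a median of 1.35 (log2) and ran from 0.19 to 4.65. For Taestivum_ESTC000362 the nearest profile over the 12 arrays was that of Taestivum_ESTC026700 (root mean square distance 0.49, log2), then Taestivum_ESTC037516 (0.51) and Taestivum_ESTC049924 (0.54). For Taestivum_ESTC006334 the nearest were Taestivum_ESTC018641 (0.61), Taestivum_ESTC033559 (0.64) and Taestivum_ESTC000362 (0.66). For Taestivum_ESTC038511 they were Taestivum_ESTC003876 (0.62), Taestivum_ESTC034735 (0.67) and Taestivum_ESTC021182 (0.73). All of these nearest features, sought over the whole table, were members. Features this close to profiles chosen for their wide gaps must have similar gaps themselves, so nothing is read from that. Joined by single linkage at a distance of 0.5 or less, 122 members formed 1 chain. Its most distant members were 3.22 apart, so the chain is no group of copies, and Taestivum_ESTC000362, Taestivum_ESTC003876, Taestivum_ESTC033559, Taestivum_ESTC021182 and Taestivum_ESTC018641 belong to it. The closest pair, named here after its values were seen, was Taestivum_ESTC020373 and Taestivum_ESTC036435, 0.19 apart. Their hexaploid means were 11.81 and 11.89 and their Ae. speltoides means 8.24 and 8.47.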

How the data were processed

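The authors deposited linear intensity values summarised per feature; RMA is the method that the submitters' processing notes list, with no version. Array medians were nearly equal as deposited, so a change in total transcript cannot be seen. Of the deposited table of raw probe intensities only the probe names were used, because none of its 12 columns could be matched to a label. All 200 members had 2 probes. One group-means model was fitted to log2 of the values of 56855 features with limma (version 3.58.1 under R 4.3.3), with 6 residual and 2.97 prior degrees of freedom, without a filter and with 8 control features left out, and was tested on simulated data. Calls need a Benjamini-Hochberg adjusted p under 0.05 and a log2 difference of at least 1.

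The members and lists were chosen with earlier results of these data known. Named are the 10 members with the widest gap, the 3 highest in the hexaploids and in any diploid, up to 5 called each way between the hexaploids (there were none), the 3 with the largest called diploid difference, those at the threshold, 5 of the largest chain and the nearest 3 profiles; others are said to be outside this. Where a diploid lay at or below the random control on both arrays, the higher of control and feature was used per array and the fold is a lower bound. Alternatives were the floor, the gap, the scaling, the variance model, low values, the replicate number and leaving out arrays.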

Additional observations from a re-analysis of the deposited data

How the results depend on the processing

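The number of bread wheat features high in the hexaploids alone was 428, and 319 to 575 with a floor of 6, 8 or none or with cyclic loess. It was 172 with a gap of at least 3 and 725 with arrays scaled to the random control, where all 200 members met the rule; the higher gap leaves fewer by construction, and the cause of the other shift was not tested. With a floor of 8, 190 members met it. Over all features the median of hexaploids minus diploids was -0.11 (log2) in the deposited values, against a members' median of 4.66. It was -0.0037 after cyclic loess (members 5.01) and 0.56 after scaling to the random control (members 5.33). The rule gave 10 features from T. monococcum, 2 from Ae. speltoides and 1 from rye sequences, and 0 labelled Asquarrosa and 0 labelled Atauschii. Leaving out each array gave 420 to 434. Between translocation and wheat, the count of 0 called members was also 0 under each alternative run, leaving out each array included (0 to 0, with 2 to 7 at an unadjusted p under 0.05); with values under 7 set to 7, 41 members had an unadjusted p under 0.05 (7.28% of all features). Without the dimmest 25% of features only 44 members were tested. The fit of the hexaploid arrays alone was chosen after seeing the data. Members called between diploids numbered 87, 76 with cyclic loess, 78 scaled to the random control, 27 with values under 7 set to 7, and 79 to 89 leaving out each array. No label makes the replicate number a shared batch. Arrays with the same number had deviations from their group means that correlated between -0.06 and 0.21. In the fit with the replicate block, 0 members were called between the lines and 86 between diploids. With a gap of 1 on the unused arrays, 198 of 200 features met the rule instead of 194.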

Other observations

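Of the 228 features that met the rule but fell outside the 200, 2 were called between the hexaploids, beside 0.642% of all features. At an unadjusted p under 0.05 (limma) stood 11 of the 228 (4.82%, against 5.85% of all features). With shares so near those of all features, the counts say nothing particular of this set. Both called features were higher in translocation and are named here after their values were seen. Taestivum_ESTC041504 averaged 11.89 ± 0.04 (SD, n = 2) in translocation and 10.21 ± 0.18 in wheat, a difference of 1.68 (SE 0.28, limma adjusted p = 0.0331), and 6.97 to 7.48 in the diploids. Taestivum_ESTC039224 averaged 11.90 ± 0.11 and 10.60 ± 0.05, a difference of 1.30 (SE 0.22, limma adjusted p = 0.0350), and 7.75 to 8.14 in the diploids. In both, the arrays of the lines did not overlap.

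The few features from sequences of other species with the same split, also named after their values were seen, reached similar levels. Aspeltoides_ESTC002232, designed on an Ae. speltoides sequence, averaged 4.59 in Ae. speltoides itself, below that plant's random control, 10.16 in wheat and 10.25 in translocation. Scereale_ESTC000446, designed on a rye sequence, averaged 12.09 in wheat and 11.83 in translocation. Its rye arrays read 10.03 and 8.38, and the other diploids averaged 6.62 to 7.80. Tmonococcum_ESTC003140 averaged 11.58 in wheat, 11.44 in translocation and 6.91 to 7.39 in the diploids. In the first of these the species the probe came from was at background, and in the second rye was the highest diploid.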
